A study of Mus musculus with 74 samples.

Results

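Txnip, the gene for thioredoxin-interacting protein, was followed across a time course of TGF-β treatment in 5 sets of dual-channel mouse arrays, called lines here. Its members are the probes whose only gene symbol in the array annotation is Txnip, and 2 of the 8976 probes, numbers 249 and 7112, meet that rule. They stand for 1 of 5844 genes that the array names singly. They are kept apart throughout. The gene was chosen by its measured values: probe 249 was already known to be lower in the S2KO response, and probe 7112 was known not to match it. The S2KO values and the match of the probes are therefore given as descriptions with no test. Txnip (gene ID 56338) lies on chromosome 3, at chr3:96557957-96561857 of the mouse assembly GRCm38.p6 by the RefSeq gene table. Each probe was measured on 74 of 74 arrays. The sources used here do not say which stretch of the transcript each probe covers.

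Txnip encodes an alpha-arrestin that binds reduced thioredoxin and inhibits it, and it also limits glucose uptake at the cell surface. Its transcription is driven by the glucose-sensing factors MondoA and ChREBP, which bind carbohydrate response elements together with Mlx. TGF-β is a secreted cytokine whose receptor kinases phosphorylate the transcription factors Smad2 and Smad3.

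The series holds 74 arrays in 25 groups: the lines S2WT, S2KO, S3WT, S3KO and U0126 were each sampled at 0, 0.3, 1, 2 and 4 h. A group has 3 arrays, except S3KO at 1 h with 2. By the labels, channel 1 carried RNA of cells without TGF-β and channel 2 RNA of cells of the same line with TGF-β, and on the 0 h arrays neither channel had received it. S2 and S3 are not spelled out there; the published study with this design used cells without Smad2 (S2KO) or Smad3 (S3KO), and S2WT and S3WT are their wild-type partners. The U0126 arrays are named after an inhibitor of the kinase MEK, and their titles read S2WT_vs_U0126. Their labels name S2WT and U0126 in both channels without saying which cells received the inhibitor. By these names the cells are S2WT, so U0126 is called a line for brevity and is not separate from S2WT. The 4 h arrays of S2WT carry 2 h in their channel labels, and a label of S3KO at 0.3 h names no TGF-β in either channel; the titles were followed. The labels give no cell type, so none was checked against markers, and the ratios cannot check the knockouts because both channels hold the same line. Nothing says that the arrays of a group came from separate cultures, so a p-value here covers array-to-array spread that could be purely technical.

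Each value is a log2 ratio, taken as treated over untreated, with the median of its array subtracted. That direction is likely but not certain, since the sources used here do not give the dyes. The arrays held values for 7688 to 8713 probes. With signal intensities unknown, the SE of a group mean rests on how many arrays it has, since all groups share a spread per probe. Groups of the same size differed in their own SD. On probe 249 at 0 h it was 0.10 in S2WT and 0.85 in S3KO (n = 3 each). On probe 7112 at 0 h it was 0.11 in S2WT and 2.67 in U0126 (n = 3 each). S3KO at 1 h, replicate 2, stood apart: its median correlation with the other arrays was -0.23, against 0.31 for replicate 3. S3KO at 0 h, replicates 1 and 2, had medians of -0.11 and -0.05. S3KO values of probe 249 that turn on these arrays are also given with 1 of them left out.

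The start of the gene is shown because its known glucose elements lie there and because the probes below are annotated to this 1 gene. The window holds 250 bases before and 50 after the RefSeq start (chr3:96557707-96558006, plus strand, GRCm38.p6). Capitals mark 2 copies of CACGAG, letters found in carbohydrate response elements, 1 copy of GTAAACA, the letters of a forkhead site, and 2 copies of CCAAT, of which the upstream one lies on the minus strand and reads ATTGG here.

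Txnip promoter: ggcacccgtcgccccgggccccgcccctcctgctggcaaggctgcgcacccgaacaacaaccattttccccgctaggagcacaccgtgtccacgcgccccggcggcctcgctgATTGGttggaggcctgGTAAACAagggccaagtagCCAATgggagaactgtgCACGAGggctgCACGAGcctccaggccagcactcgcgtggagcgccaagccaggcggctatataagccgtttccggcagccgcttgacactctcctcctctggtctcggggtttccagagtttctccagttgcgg

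The CACGAG copies begin 85 and 74 bases before the start. Both strands were searched in 32851 RefSeq windows of this length, and 6.47% of them hold CACGAG at least once, while 0.359% hold it at least as often as Txnip. GTAAACA begins 121 bases before the start and occurs in 3.65% of windows. CCAAT, the letters of an NF-Y site, lies 137 and 102 bases before the start and occurs in 37.4% of windows, with as many copies in 11.7%. CACGTG, the full E-box, and CAGAC, the letters of a Smad-binding element, are not in this window, and they occur in 7.15% and 49.6% of windows. Shorter or other forms of these elements were not searched, so the window is not shown to lack them. These matches are a description of the letters only.

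On probe 249, Txnip was lower with TGF-β in S2WT, S2KO and U0126, and the lower values lay at 2 and 4 h. In S2WT the 0 h arrays read -0.22, -0.03 and -0.14, and the 0.3 h arrays -0.36, -0.80 and -0.02. At 1 h the values were -0.62, 0.05 and -0.32, at 2 h -0.36, -1.04 and -1.28, and at 4 h -1.24, -1.49 and -2.01. The 0.3 and 1 h arrays overlapped the 0 h arrays, whereas all 6 arrays at 2 and 4 h lay below the lowest 0 h array of the line.

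The U0126 arrays were also low at 2 and 4 h. Their 0 h arrays read -0.12, 0.07 and -0.18, the 0.3 h arrays -0.40, -0.77 and 0.06, and the 1 h arrays -0.55, -1.21 and -0.20. At 2 h the values were -1.43, -1.60 and -1.71, and at 4 h they were -1.87, -1.57 and -1.20. All 9 arrays at 1, 2 and 4 h lay below the lowest 0 h array.

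S2KO is the line on whose response the gene was chosen. Its 0 h arrays read -0.08, 0.10 and 0.13, its 0.3 h arrays 0.26, -0.14 and 0.29, and its 1 h arrays -0.32, -0.42 and -0.21. Values at 2 h were -1.98, -0.74 and -1.52, and at 4 h -1.39, -1.13 and -1.70. All 9 arrays at 1, 2 and 4 h lay below the 0 h arrays, the 1 h arrays by less than the later ones.

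In S3WT, probe 249 stayed near 0 at every time. The 0 h arrays read 0.00, -0.29 and 0.23, the 0.3 h arrays -0.28, -0.09 and 0.23, and the 1 h arrays 0.01, -0.27 and 0.33. At 2 h the values were -0.03, -0.38 and -0.09, and at 4 h -0.25, -0.56 and 0.10. Of the 6 arrays at 2 and 4 h, 2 lay below the lowest 0 h array, and the other arrays overlapped the 0 h values. However, 5 of the 6 lay below the mean of the 0 h arrays. Each of the 6 also read below the 0 h array of its own replicate number, although the numbers were not taken to pair the arrays and this was not tested.

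In S3KO the 0 h arrays were far apart, at 0.71, -0.995 and -0.13, and the first pair are those that stood apart above. The 0.3 h arrays read 0.00, 0.34 and -0.14, and the 1 h arrays 0.32 (the array that stood apart) and 0.20. Values were -0.40, -0.52 and -0.17 at 2 h and -0.29, -0.56 and -0.22 at 4 h. All 6 of these later arrays were below 0, but none lay below the lowest 0 h array.

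Over the 15 arrays at 0 h, probe 249 ran from -0.995 to 0.71 with a median of -0.08. All 18 arrays of S2WT, S2KO and U0126 at 2 and 4 h lay below the 12 arrays at 0 h outside S3KO, and 16 of 18 lay below all 15. The S3KO arrays left out of the 12 include the lowest, at -0.995. These lines and times were grouped after their values had been seen, and they include the S2KO arrays used in choosing the gene. How many other probes separate in this way was not counted, so the separation is a description with no test.

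**Figure D1:**
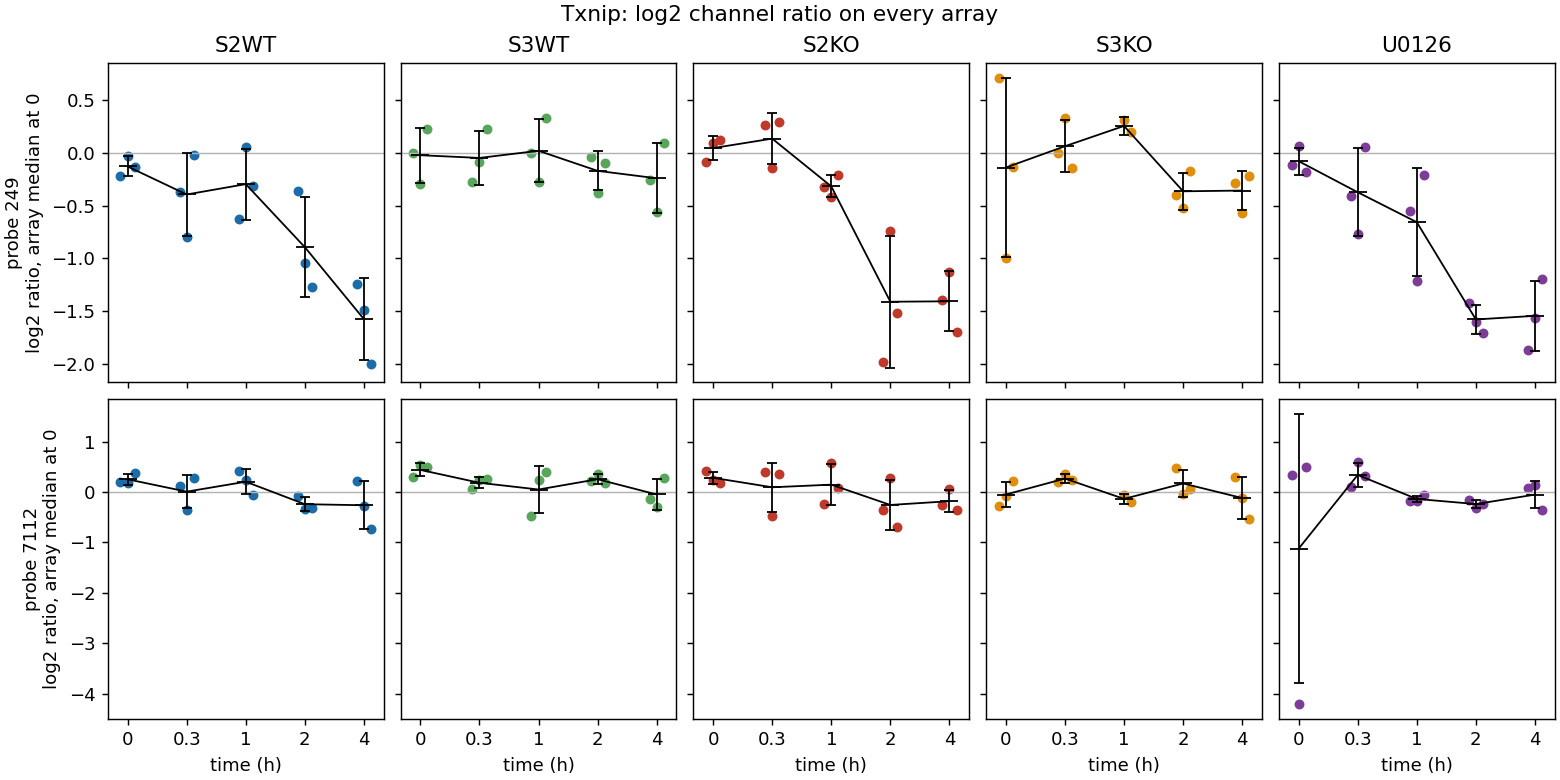
Log2 channel ratio of Txnip (array median at 0) against time in hours, for probe 249 in the upper row and probe 7112 in the lower row, with 1 panel per line. Each point is an array, and bars show the mean ± SD of a group. Probe 249 is low at 2 and 4 h in S2WT, S2KO and U0126, and the point at -4.21 is U0126 at 0 h, replicate 2, on probe 7112.

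The order of the group means of probe 249 at 4 h was S2WT (-1.58 ± 0.39, SD, n = 3), U0126 (-1.55 ± 0.34), S2KO (-1.41 ± 0.29), S3KO (-0.36 ± 0.18) and S3WT (-0.24 ± 0.33). The first 3 lines differed from each other by less than the SD of any of them, and so did S3KO and S3WT by less than the SD of S3WT. At 2 h the order was U0126 (-1.58 ± 0.14, n = 3), S2KO (-1.41 ± 0.63), S2WT (-0.89 ± 0.47), S3KO (-0.36 ± 0.18) and S3WT (-0.17 ± 0.18). At 2 h, S2KO differed from U0126 and from S2WT by less than its own SD, while U0126 and S2WT, and S3KO and S3WT, were farther apart than either SD of the pair.

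The response of a line was its mean log2 ratio at 1, 2 and 4 h minus that of its own 0 h arrays, which asks whether TGF-β moved Txnip by more than a self-comparison does. Responses were tested with limma's moderated t test and Benjamini-Hochberg adjustment over all probes, and a probe past 0.05 is counted as called. In U0126, probe 249 fell by 1.18 ± 0.24 (SE) on the log2 scale, 2.27-fold lower, with an adjusted p of 0.0156. In this line 0.0719% of 8349 probes were called, and 142 had a lower value. The call was lost without U0126 0 h replicate 2 (-1.11, adjusted p = 0.0557) and held in the other 11 of 12 fits that left out 1 of its arrays. It was also lost with arrays not centred, with only the arrays of this line fitted, and with the probes averaged.

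In S2WT, probe 249 was at -0.80 ± 0.24 and did not pass over 1 to 4 h (adjusted p = 0.185 by limma). Of 8331 probes in S2WT, 0.192% were called. S3WT was at -0.11 ± 0.24 (adjusted p = 1.00 by limma, with 0.12% of probes called). S3KO was at -0.02 ± 0.24 (adjusted p = 0.998 by limma, with 1.53% called), and at -0.04 without the 1 h array that stood apart. Without 0 h replicate 1 or 2 it was at 0.41 or -0.45, and neither passed. The SE of the S3KO response uses the spread shared by all groups and does not widen for its 0 h arrays, which were far apart. The S2KO value was -1.09 ± 0.24, beside 0.515% of probes called in that line. The median of all probes tested lay between -0.03 and 0.02 in the 5 lines.

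A two-sided exact permutation test of the treated against the 0 h arrays of a line gave p = 0.00455 for probe 249 in U0126, the smallest that 220 regroupings can give, and 0.0364 adjusted over 8 such tests. For probe 249 in S2WT the same exact test gave p = 0.0636.

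Single times were tested after the values had been seen. At 4 h against own 0 h arrays, probe 249 fell by 1.45 ± 0.29 in S2WT (2.73-fold lower, adjusted p = 0.013 by limma) and by 1.47 ± 0.29 in U0126 (2.77-fold lower, adjusted p = 0.00853). At that time 0.383% of probes were called in S2WT and 0.29% in U0126. The S2WT call at 4 h was lost without S2WT 4 h replicate 3 (-1.24, adjusted p = 0.0831) and held in 5 of 6 fits that left out 1 array, while the U0126 call at 4 h held in 6 of 6.

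At 2 h, probe 249 fell by 1.50 ± 0.29 in U0126 (adjusted p = 0.0112 by limma), where 0.0583% of probes were called. It lost that call without U0126 2 h replicate 3 (-1.44, adjusted p = 0.0607). In S2WT at 2 h the value was -0.77 ± 0.29 (adjusted p = 0.482), with 0.035% of probes called. S3WT was at -0.15 and -0.22 at 2 and 4 h, and S3KO at -0.23 and -0.22, and none of these 4 values passed. The sign in S3KO hung on its 0 h arrays: without replicate 1 the values were 0.20 and 0.21, and without replicate 2 they were -0.65 at both times. The shares of probes called were 0.0937% and 0.244% in S3WT and 0.555% and 0.423% in S3KO.

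The window of 2 and 4 h was also chosen after the values had been seen to be low there. Over 2 and 4 h together, probe 249 fell by 1.11 ± 0.25 in S2WT (adjusted p = 0.0363 by limma, 0.166% of probes called). It fell by 1.49 ± 0.25 in U0126 (adjusted p = 0.000819 by limma, 0.189% called). The S2WT call held in 3 of 9 fits that each dropped an array, with adjusted p up to 0.0997, and was lost without S2WT 0 h replicates 1, 2 or 3, 2 h replicates 2 or 3, or 4 h replicate 3. The U0126 call held in 9 of 9. S3WT was at -0.18 ± 0.25 (adjusted p = 1.00, 0.237% called) and S3KO at -0.22 ± 0.25 (adjusted p = 0.819, 1.47% called). The S3KO value was 0.20 without 0 h replicate 1 and -0.65 without 0 h replicate 2, and neither passed.

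Against the mean of the 15 arrays at 0 h of all lines, probe 249 fell in both lines. It fell by 0.86 ± 0.15 in S2WT, 1.81-fold lower (adjusted p = 0.000502 by limma), where 1.27% of 7555 probes were called. It fell by 1.20 ± 0.15 in U0126, 2.29-fold lower (adjusted p = 1.17e-06), where 0.782% of 7543 probes were called and 26 had a lower value. Both calls held in 24 of 24 fits that left out 1 array. The lines share these 0 h arrays, which include the S2KO arrays used in choosing the gene. In a comparison added after the data were seen, over the 12 arrays at 0 h outside S2KO, probe 249 fell by 0.83 ± 0.16 in S2WT (adjusted p = 0.00161 by limma, 1.66% called) and by 1.17 ± 0.16 in U0126 (adjusted p = 7.92e-06, 0.745% called). S3WT was at -0.07 ± 0.15 (adjusted p = 0.965, 0.146% called) and S3KO at -0.09 ± 0.16 (adjusted p = 1.00, 0.0141% called). S2KO was at -0.98 ± 0.15, beside 2.49% of probes called.

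**Figure D2:**
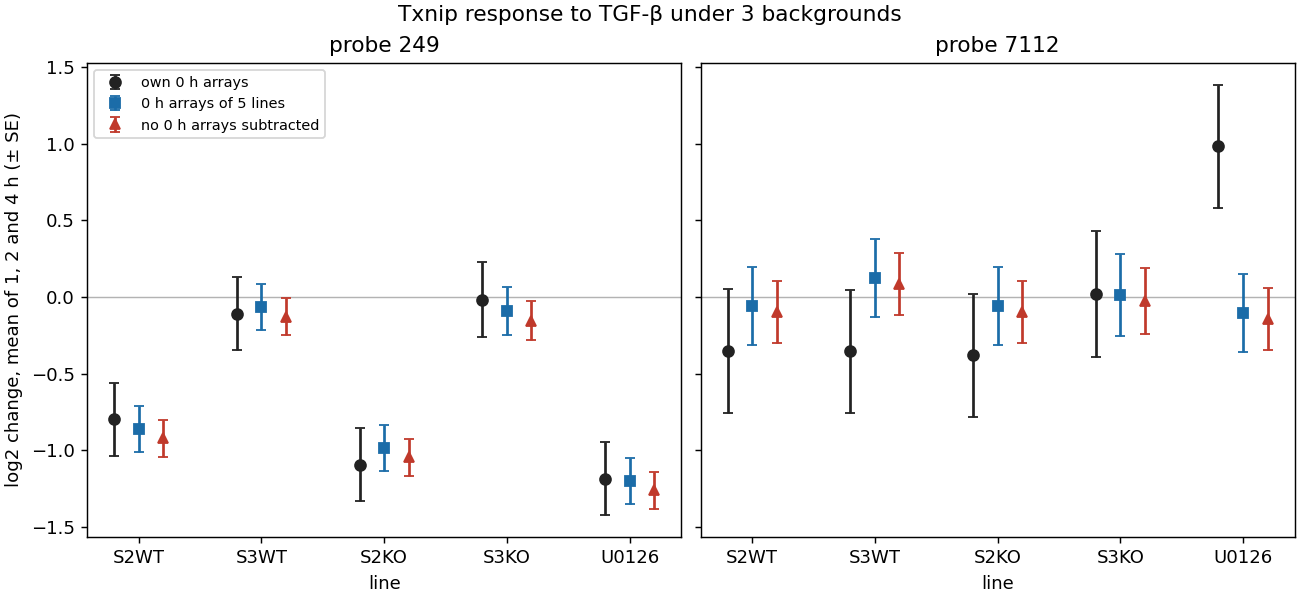
Txnip response, the mean log2 ratio at 1, 2 and 4 h, in each line for probe 249 (left) and probe 7112 (right), with own 0 h arrays, the 0 h arrays of 5 lines or no 0 h arrays subtracted. Points are estimates and bars are ± 1 SE. On probe 249, S2WT, S2KO and U0126 lie below S3WT and S3KO under each background, while probe 7112 in U0126 is at 0.98 against own 0 h arrays and at -0.10 against those of 5 lines.

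At 0.3 h neither probe passed in S2WT, S3WT, S3KO or U0126. Probe 249 was at -0.27 in S2WT, -0.03 in S3WT, 0.20 in S3KO and -0.30 in U0126, and at 0.09 in S2KO without a test. The S3KO value was 0.63 without 0 h replicate 1 and -0.23 without 0 h replicate 2. In S2WT, limma called 0 of 8450 probes (0%), with 520 at an unadjusted p under 0.05; the shares called were 0.152% in S3WT, 0.845% in S3KO and 0.0355% in U0126.

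The change from 1 to 4 h leaves the 0 h arrays out of the comparison. Probe 249 was at -1.28 ± 0.29 in S2WT, close to the threshold (adjusted p = 0.0509 by limma), where 0.0231% of probes were called. U0126 was at -0.89 ± 0.29 (adjusted p = 0.26 by limma, 0.139% called), S3WT at -0.26 ± 0.29 (0.0576% called) and S3KO at -0.61 ± 0.33 (adjusted p = 0.943 by limma, 0.19% called). Without the 1 h array that stood apart S3KO was at -0.55, and with the sign of that array turned at -0.30. S2KO was at -1.09 without a test.

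The 0 h arrays compare a line with itself, and on them probe 249 did not differ from 0 by limma in S2WT (-0.13), S3WT (-0.02), S3KO (-0.14, and -0.56 or 0.29 without replicate 1 or 2) or U0126 (-0.08). The shares of probes called at 0 h were 0.297%, 3.01%, 3.24% and 5.34% in those lines. Probe 7112 at 0 h was called only in U0126, through 1 array that is described below.

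Probe 7112 carries the same gene symbol and showed smaller differences. In S2WT it read 0.20, 0.18 and 0.38 at 0 h, 0.12, -0.36 and 0.27 at 0.3 h, 0.43, 0.24 and -0.05 at 1 h, -0.08, -0.33 and -0.31 at 2 h, and 0.22, -0.28 and -0.72 at 4 h. Of the 6 arrays at 2 and 4 h, 5 lay below the lowest 0 h array. In S3WT it read 0.30, 0.53 and 0.49 at 0 h, and the 9 arrays at 1, 2 and 4 h ran from -0.48 to 0.40 with a median of 0.22, 7 of them below the lowest 0 h array.

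In S2KO probe 7112 read 0.41, 0.25 and 0.19 at 0 h, and the 9 arrays at 1, 2 and 4 h ran from -0.70 to 0.58 with a median of -0.23. In S3KO it read -0.28, -0.07 and 0.21 at 0 h and ran from -0.54 to 0.48 over the 8 later arrays, with a median of -0.05. The groups overlapped in both lines, but 7 of the 9 arrays in S2KO lay below its lowest 0 h array, against 1 of the 8 in S3KO.

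In U0126, the 0 h arrays of probe 7112 read 0.35, -4.21 and 0.49. The second of them, replicate 2, was deposited at -4.56 and is the lowest value of either probe, and on the same array probe 249 read 0.07. The 0.3 h arrays read 0.10, 0.59 and 0.32, and the 9 arrays at 1, 2 and 4 h ran from -0.36 to 0.13 with a median of -0.17. All 9 were higher than the low 0 h array and lower than the other two.

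The response of probe 7112 was -0.35 ± 0.40 in S2WT, -0.35 ± 0.40 in S3WT, 0.02 ± 0.41 in S3KO and 0.98 ± 0.40 in U0126, and none passed (adjusted p from 0.586 to 1.00 by limma). The S2KO value was -0.38. Without U0126 0 h replicate 2, which also enters the spread of this probe in every line, the SD between arrays went from 0.60 to 0.29 and the U0126 response from 0.98 to -0.56 ± 0.23 (adjusted p = 0.52 by limma). S2WT then stood at -0.35 ± 0.20 (adjusted p = 0.719), and at -0.50 ± 0.21 over 2 and 4 h (adjusted p = 0.405). At 0 h, the U0126 ratio of probe 7112 went from -1.12 (adjusted p = 0.0439 by limma) to 0.42 (adjusted p = 0.329).

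Against the pooled 0 h arrays, probe 7112 was at -0.06 in S2WT, 0.13 in S3WT, 0.01 in S3KO and -0.10 in U0126, and none passed. With the same array left out of the pool these values were -0.37, -0.18, -0.30 and -0.41, with adjusted p from 0.12 to 0.894 by limma. At 0.3 h, U0126 moved from 1.46 to -0.08 without that array, and neither value passed; without U0126 0 h replicate 1 or 3 the 0.3 h value was called (up to 2.27, adjusted p from 0.0378).

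The probes were then compared array by array. Probe 249 read lower than probe 7112 on 67 of 74 arrays. At 2 and 4 h it was lower by a mean of 0.98 ± 0.43 (SD, n = 6) in S2WT, 1.19 ± 0.28 in S2KO and 1.42 ± 0.38 in U0126, on 6 of 6 arrays in each, and by 0.31 ± 0.22 in S3WT and 0.39 ± 0.40 in S3KO. At 0 h probe 249 was already lower by 0.38 ± 0.16 (SD, n = 3) in S2WT, 0.24 ± 0.23 in S2KO and 0.46 ± 0.31 in S3WT. It was lower by 0.09 ± 0.98 in S3KO at 0 h. In U0126 at 0 h it was higher by a mean of 1.05 ± 2.80, with replicate 2 included. In each of these lines it was lower on 2 of 3 arrays. In S3WT the mean gap was thus smaller with TGF-β than before it, a difference within the SDs that was not tested. Across arrays, Pearson's r between the probes was 0.19 and Spearman's rho 0.43 over 74 arrays, and 0.51 and 0.47 over 73 without U0126 0 h replicate 2. By line, without that array, r was 0.76 in S2WT, 0.66 in S2KO and 0.55 in U0126, and 0.36 in S3WT and -0.09 in S3KO. For deviations from the group means r was 0.16. These arrays share lines, times and a platform, so the correlations describe them and carry no p.

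**Figure D3:**
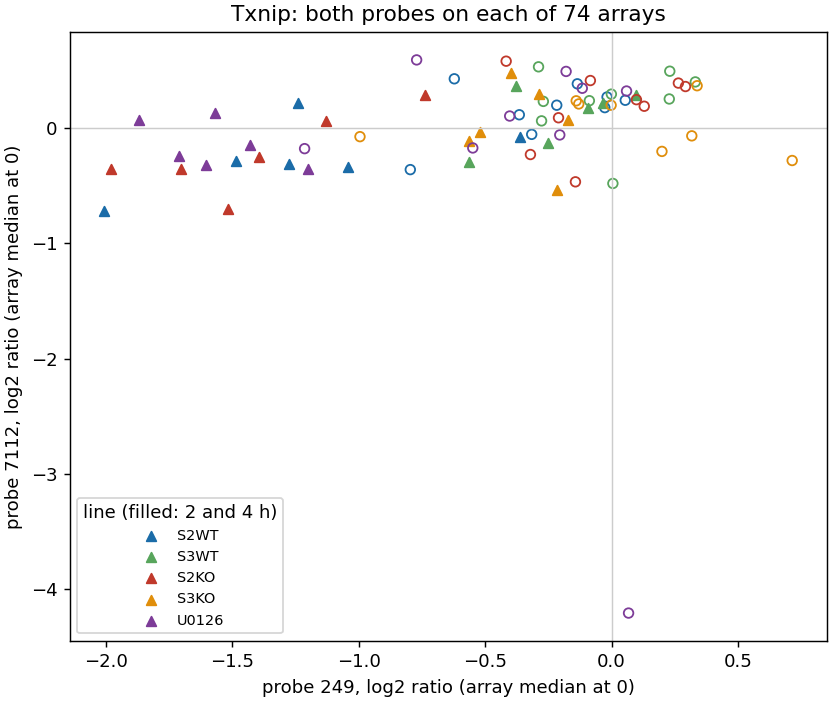
Log2 ratio of probe 249 (horizontal) against that of probe 7112 (vertical) on each of 74 arrays, array medians at 0, coloured by line, with filled triangles for 2 and 4 h and open circles for earlier times. The triangles of S2WT, S2KO and U0126 extend to about -2.01 on probe 249 and only to -0.72 on probe 7112, and the lone point at the bottom is U0126 0 h replicate 2.

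The moderated SD between arrays within groups was 0.36 for probe 249 and 0.60 for probe 7112, against a median of 0.58 over all probes. By this SD, 24.9% of probes had a smaller spread than probe 249. Without U0126 0 h replicate 2 the order was reversed, at 0.36 for probe 249 and 0.29 for probe 7112.

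Differences between lines in the response were then tested. On probe 249, U0126 minus S2WT was -0.39 ± 0.34 (95% interval -1.06 to 0.29, adjusted p = 0.967 by limma), with 0.0252% of probes called. S3KO minus S3WT was 0.09 ± 0.34 (95% interval -0.59 to 0.77, adjusted p = 0.984 by limma), with 0.126% called. That value took either sign with an S3KO 0 h array left out, at -0.34 without replicate 2 and 0.52 without replicate 1. Its SE and interval use the spread shared by all groups. They do not widen for the S3KO 0 h arrays, whose own SD was 0.85 (n = 3). S2KO minus S2WT was -0.30 ± 0.34, without a test. On probe 7112, U0126 minus S2WT was 1.33, and -0.21 without U0126 0 h replicate 2, and neither passed.

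The wild-type lines were set against each other after their values had been seen. The difference of responses, S3WT minus S2WT, was 0.69 ± 0.34 on probe 249 and did not pass (adjusted p = 0.919 by limma). It rests on both sets of 0 h arrays, and limma called 0 of 7882 probes (0%), with 419 at an unadjusted p under 0.05. The treated arrays compared directly, without 0 h arrays, were 0.79 ± 0.17 apart, S2WT being lower (adjusted p = 0.0272 by limma), where 0.209% of probes were called. The direct call held in 15 of 18 fits that left out 1 array. It was lost without S2WT 1 h replicate 1 (adjusted p = 0.0869), S3WT 1 h replicate 3 (0.052) or S3WT 4 h replicate 3 (0.0583). Probe 7112 was at 0.18 in the direct comparison and did not pass.

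The genes of the thioredoxin and glucose pathways were taken as lists and described by counts over the probes that the array holds. Of 20 genes of the thioredoxin system (thioredoxins, their reductases, peroxiredoxins and glutaredoxins), 7 had a probe, and 0 of 7 probes tested in S2WT were called by limma against own 0 h arrays, where 0.192% of all probes were, with a median of 0.08 beside 0.02 for all probes. The smallest p of the list in S2WT was that of Txn2, the mitochondrial thioredoxin, at 0.50 ± 0.45 (adjusted p = 0.918). In U0126 the median of this list was -0.02 and in S3WT -0.13, and limma called no probe of it in any line. Over the 5 lines, 4 of 37 probe tests against own 0 h arrays and 1 of 34 against pooled ones had an unadjusted p under 0.05. Over all probes and the same lines that share was 7.67% against own and 10.3% against pooled 0 h arrays, and 0.463% and 0.947% of those tests were called, so the counts of the lists below are to be read against these.

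Of 8 alpha-arrestins and Mondo-Mlx factors, 2 had a probe: Mlxip, which encodes MondoA, and Mlxipl, which encodes ChREBP. Mlxipl was at -0.94 ± 0.51 in S2WT (adjusted p = 0.701 by limma). Mlxip rose by 0.90 ± 0.17 in S2KO against the pooled 0 h arrays (adjusted p = 0.000432) and was called in no other response tested. In this list 2 of 10 own and 4 of 10 pooled tests had an unadjusted p under 0.05 by limma. All of these were tests of Mlxip, and both shares were above those over all probes. Of 10 genes for Txnip partners and ubiquitin ligases, 6 had a probe, and none was called by limma, with 2 of 47 own and 4 of 45 pooled tests at an unadjusted p under 0.05. Wwp2, a ubiquitin ligase, had the smallest p in S2WT, at 0.46 ± 0.19 (adjusted p = 0.477) on probe 2543, but its other probes were at -0.39 and 0.29 and did not pass either. Of 18 genes of glucose uptake and glycolysis, 4 had a probe, and none was called by limma, with 2 of 20 own and 4 of 20 pooled tests at an unadjusted p under 0.05. Hk1, a hexokinase, was at -0.17 ± 0.17 in S2WT (adjusted p = 0.945).

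Of the 3 FoxO genes only Foxo1, a forkhead transcription factor, had probes. On probe 2461 it rose by 1.58 ± 0.29 in S2WT against own 0 h arrays (adjusted p = 0.00442 by limma). Against pooled 0 h arrays it rose by 0.92 ± 0.16 in S2WT, 0.72 ± 0.16 in S3WT (adjusted p = 0.0414), 1.19 ± 0.16 in S2KO and 0.72 ± 0.17 in U0126 (adjusted p = 0.0235). Against own 0 h arrays this probe did not pass in S3WT (0.75, adjusted p = 0.277), S2KO (0.55, 0.503), S3KO (0.65, 0.243) or U0126 (0.19, 0.999), and pooled S3KO (0.17) did not pass. The other Foxo1 probes were not called, and in S2WT the 3 probes ran from -0.72 to 1.58. In this list 4 of 13 own and 4 of 10 pooled tests had an unadjusted p under 0.05 by limma. All of these were tests of probe 2461, and both shares were above those over all probes.

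The probes most like each Txnip probe were found by Pearson's r over the 25 group means. The search covered 5176 probes with a single gene symbol, clone identifiers left out, that were measured on at least 2 arrays of every group. Closest to probe 249 was a probe of Ap5z1, a subunit of the adaptor complex AP-5, with r = 0.85, but the other probe of Ap5z1 had r = 0.06. Next came the sorting nexin Snx5 (0.81), Zfc3h1 (0.81), the sorting nexin Snx33 (0.81, with 0.66 for its other probe) and Glul, the glutamine synthetase (0.80). At 4 h their S2WT group means ran from -1.03 for Ap5z1 to -0.32 for Glul, all less low than the -1.58 of probe 249. The other Txnip probe had r = 0.34 with probe 249 and was 576th in that order. Without the U0126 0 h group that r was 0.67.

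Closest to probe 7112 were Tmem38b (0.76), an intracellular cation channel, the Myc antagonist Mxi1 (0.72), Parp11 (0.72), Arhgap22 (0.71) and Zc2hc1c (0.70). Their U0126 0 h means lay between -2.60 and -0.77. Without the U0126 0 h group these correlations were 0.65, 0.21, 0.11, 0.53 and 0.32. The group means share arrays and hybridisations, so these correlations are descriptions.

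**Figure D4:**
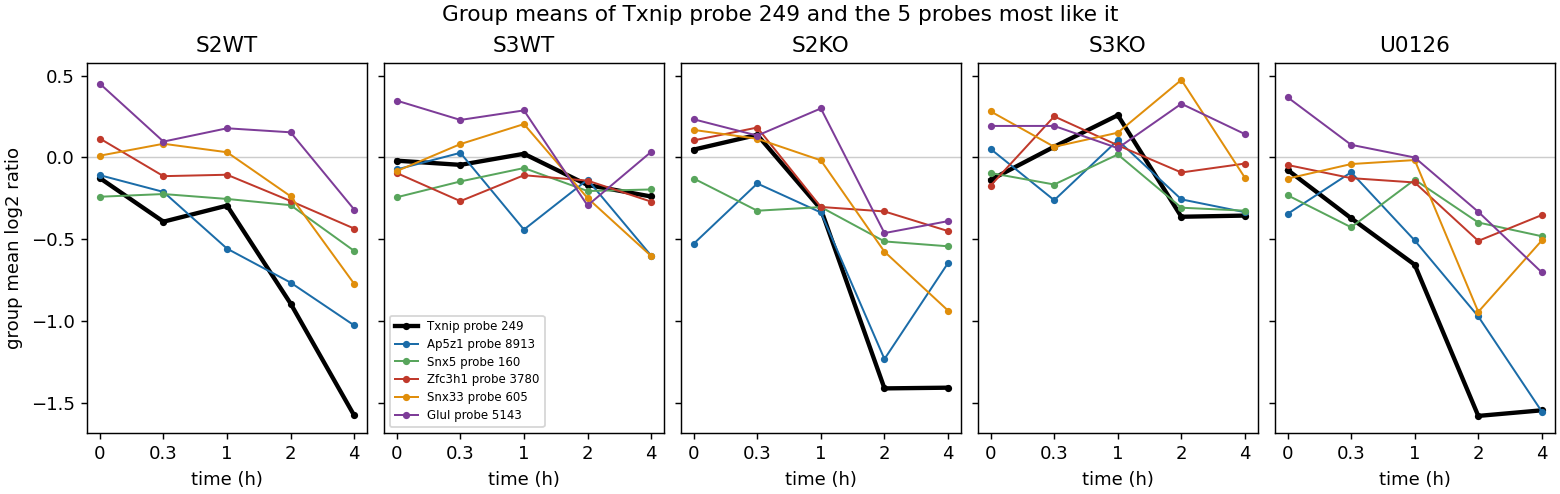
Group mean log2 ratio against time in hours, in 1 panel per line, for Txnip probe 249 (thick black line) and the 5 probes, of those compared, with the highest Pearson's r with it over 25 group means. In S2WT and U0126 every curve ends below its 0 h value, and probe 249 and Ap5z1 reach the lowest means at 4 h, at -1.55 for both in U0126.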

How the data were processed

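The authors deposited 1 log2 channel ratio per probe and array, and the sources used here do not give their dyes, background correction or normalisation. Values above 16.6 (1344, none of Txnip) were treated as missing, since they equal the log2 of a very large ratio, 41670 values were blank, and each array was centred on its median (-0.60 to 0.22 as deposited). Gene symbols come from the platform annotation, where 7348 probes have 1 symbol, 399 several and 1229 none; 7274 of the first matched RefSeq.

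Group means over all 74 arrays were fitted by least squares, with variances moderated by squeezeVar of limma 3.58.1 in R 4.3.3. A probe was tested where each group in a comparison had at least 2 arrays with a value, with Benjamini-Hochberg adjustment over all probes and a threshold of 0.05. The fit was tested on simulated data. Figures were drawn with matplotlib 3.10.9. Promoter windows came from RefSeq.

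Txnip, the pathway lists and the comparisons were chosen with earlier results of these data known. Named genes were Txnip, the 5 single-symbol probes most like each of its probes, and from each list the members called plus the one with the smallest p in S2WT. The single-time and 2 and 4 h responses, the S3WT comparison, the pooled backgrounds without S3KO or S2KO and the fits without U0126 0 h replicate 2 were added after seeing the data.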

Additional observations from a re-analysis of the deposited data

Results flagged for a closer look

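Probe 249 of Txnip differed between S3WT and S2WT by 0.79 on the log2 scale, past the threshold by limma, when the treated arrays of the lines were compared directly. These lines were set against each other after their values had been seen. The same difference taken between responses against own 0 h arrays was 0.69 and did not pass, and the direct call held in 15 of 18 fits that left out 1 array.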

How the results depend on the processing

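Values below are log2 changes with limma's adjusted p where a call is at stake. The U0126 response of probe 249 (-1.18) lost its call with arrays uncentred (-1.07, adjusted p = 0.108), with only that line fitted (-1.18, 0.267), with the probes averaged (-0.10, 0.997), and with them averaged and U0126 0 h replicate 2 left out (-0.84, 0.0551); its adjusted p ran from 6.57e-11 to 0.997 over 15 alternatives. The S2WT response (-0.80) passed over 2 and 4 h (-1.11), with no 0 h arrays subtracted (-0.92), against pooled 0 h arrays (-0.86) and against those outside S3KO (-0.88) or outside S2KO (-0.83). The S2WT change from 1 to 4 h (-1.28, adjusted p = 0.0509) passed with array weights (-1.26), whose estimate did not fully converge, with probes measured on every array (-1.28) and with the highest values kept instead of set to missing (-1.28). In S2KO, averaging the probes gave -0.74 for the response and -0.71 for the change, and 2 and 4 h gave -1.46. The number of probes called moved by over 1.5 times: in S2WT, 16 became 2 with only that line fitted and 1960 with no 0 h arrays subtracted, and in U0126, 6 became 0 and 1214.

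The replicate numbers were not taken to pair the arrays, because the deviations of same-numbered arrays did not correlate above 0.1 in every pair. The lowest of these correlations was below 0 in each line, although that does not show the arrays to be unpaired. The median was 0.01 to 0.17 by line, above the -0.10 to -0.02 of other-numbered arrays, and 20 of 30 pairs in S2KO and 17 of 26 in S3KO were over 0.1. With the replicate block, the S2WT change from 1 to 4 h was -1.28 (adjusted p = 0.0458), the S3KO response of probe 249 was 0.018 and the S3KO change of probe 7112 was -0.035, and no other call changed. Comparisons between lines without their 0 h arrays and the pooled background cannot be estimated with that block.

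Other values changed sign, and none of those passed on either side. Averaging the probes gave 0.0024 for the S3KO response, -0.30 and -0.40 for the S3KO and U0126 changes of probe 7112, 0.47 for U0126 minus S2WT on probe 249, and -0.10 (-0.84 without the low array) for the U0126 response of probe 7112. That response was -0.14 with no 0 h arrays, -0.10 pooled and -0.10 pooled without S3KO; S3WT on probe 7112 was 0.086, 0.13 and 0.12 there, and S3KO was -0.027 with no 0 h arrays. Pooled without S2KO, probe 7112 was at 0.021 in S2WT, 0.21 in S3WT and -0.022 in U0126. Uncentred arrays gave -0.084 for the S3KO response and -0.029 for the U0126 change of probe 7112. On probe 249, S3KO minus S3WT was -0.039 at 2 and 4 h, -0.091 with weights, -0.014 with the sign of S3KO 1 h replicate 2 turned and -0.025 compared directly, and that turned sign gave -0.050 for the S3KO change of probe 7112. Compared directly, probe 7112 was at -0.11 for S3KO minus S3WT, 0.18 for S3WT minus S2WT and -0.043 for U0126 minus S2WT. Against pooled 0 h arrays at 0.3 h, probe 7112 was at 0.048 in S2WT and 0.22 in S3WT, and probe 249 at 0.017 in S3WT.

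The direct S3WT minus S2WT of probe 249 (0.79, adjusted p = 0.0272) was called where the difference of responses was not.

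With each array left out in turn, called values of probe 249 kept their sign, and so did the uncalled S2WT change from 1 to 4 h. The U0126 response ran from -1.26 to -1.09, S2WT over 2 and 4 h from -1.24 to -1.002, S2WT at 4 h from -1.62 to -1.24, and U0126 at 2 h from -1.58 to -1.43. The direct S3WT minus S2WT ran from 0.72 to 0.88. The S2WT change ran from -1.45 to -1.07 and was called in 3 of 7 fits. Among those called was the fit without U0126 0 h replicate 2, an array outside that comparison. Uncalled values of probe 249 that changed sign ran from -0.45 to 0.41 for the S3KO response, -0.24 to 0.017 for S3WT, -0.15 to 0.019 for S3WT pooled, -0.23 to 0.63 for S3KO at 0.3 h, -0.65 to 0.20 at 2 h, -0.65 to 0.21 at 4 h and -0.65 to 0.20 over both, -0.16 to 0.099 for S3WT at 0.3 h, -0.34 to 0.52 for S3KO minus S3WT, and -0.56 to 0.29 and -0.14 to 0.11 for S3KO and S3WT at 0 h.

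On probe 7112, values ran from -0.56 to 1.79 for the U0126 response (called without 0 h replicate 3), -0.079 to 2.27 for U0126 at 0.3 h, -1.93 to 0.42 for U0126 at 0 h (called in 2 of 3 fits), -0.21 to 2.14 for U0126 minus S2WT, -0.079 to 0.087 for S3WT minus S2WT, -0.095 to 0.15 for the S3KO response and -0.18 to 0.068 for S3KO at 0 h. Its changes ran from -0.19 to 0.23 in S3KO, -0.36 to 0.076 in S3WT and -0.0052 to 0.24 in U0126, and its pooled responses from -0.37 to 0.10 in S2WT, -0.30 to 0.17 in S3KO, -0.18 to 0.29 in S3WT and -0.41 to 0.059 in U0126. Signal over background is unknown, so a low ratio of a dim spot cannot be told apart from a true one.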
